A study of Mus musculus with 71 samples.

Results

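Circadian clock genes were examined in whole blood RNA-seq of mice with HOCl-induced systemic sclerosis, untreated or given D11, E07, D06 or BPR21, and of control mice. The 10 genes were taken by symbol, out of 55416 genes counted: Clock, Per1, Per2, Per3, Cry1, Cry2, Nr1d1, Nr1d2, Dbp and Tef. Of these, 8 were among the 10508 genes of the deposited table of variance-stabilised values (vst, a log2-type scale), and Per2 and Per3 were present as raw counts. The question was whether the groups differed in these genes, as they could if blood had been drawn at different times of day. The hour of collection is not given in the sources used here.

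The molecular clock is a feedback loop present in most cells, leukocytes included. CLOCK and its partner BMAL1 (Arntl in these files) bind E-box sequences and drive the Period (Per) and Cryptochrome (Cry) genes, whose proteins then repress CLOCK and BMAL1. The nuclear receptors REV-ERBα (Nr1d1) and REV-ERBβ (Nr1d2) repress Arntl, and the output factors DBP and TEF act on D-box sequences. In mouse tissues the transcripts of Nr1d1, Dbp and the Per genes oscillate strongly over the day, whereas that of Clock is nearly flat. Per1 is also induced directly by glucocorticoids.

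Mice were female Balb/c AnNRj, 6 weeks old at the start, kept under 12 h of light and 12 h of dark. CTRL mice (n = 11) were injected intradermally with PBS. HOCl mice (n = 12) received HOCl in the same way, 5 days per week for 6 weeks, and 4 further groups of 12 mice received HOCl together with D11, E07, D06 or BPR21. The study's methods give D11 and E07 as anti-galectin-3 antibodies, dosed subcutaneously at 20 mg/kg every 5 days. What BPR21 is, the doses of D06 and BPR21, and whether the mice given them belonged to the same experiment as the others are not given in the sources used here. Experimental and control groups were housed in separate cages, so cage and group cannot be told apart. One HOCl mouse (number 8) had counts but no vst values, which left 11 HOCl mice in tests on that scale. In bulk blood, a change in the number of cells of a type cannot be told apart from a change in RNA per cell.

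Libraries held 11932855 to 15948972 counts (median 13719277). Erythroid genes, a list of 12, took 8.41% ± 1.80 of counts in HOCl (SD, n = 12) and 4.92% ± 1.12 in HOCl+E07 (SD, n = 12), and this share moved with several comparisons below. The 5 mice whose profiles were least like those of the others were BPR21 mice 11 and 12, D11 mouse 10, D06 mouse 5 and HOCl mouse 8, with a median Spearman correlation of 0.902 to 0.925 against 0.950 for the median mouse.

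Motifs bound by factors of the loop were looked for in the DNA just before these genes, and 6 of the 10 held at least 1 match. In the 250 bases upstream of the canonical start (GRCm39, GENCODE vM39), the E-box CACGTG was found in 3 of the 10 genes, and the D-box (TTATGTAA or TTACGTAA) in 2, with both strands searched. Among 21770 such windows of protein-coding genes, 6.26% held the E-box and 0.937% the D-box. The core of the ROR and REV-ERB element (RORE, TAGGTCA), held by 2.17% of windows, was found in 1, that of Dbp. The windows of Cry2, Nr1d1, Nr1d2 and Clock held none of these letters. No window of the 10 genes held the cAMP response element TGACGTCA, present in 1.69% of windows. The matches follow, shown because they show which members carry the letters of which arm of the loop, each within 30 bases or fewer read along the gene's own strand, with the motif in capitals.
Per1 E-box, chr11:68989234-68989263, plus strand, 22 bases before the start, in an intron of a longer Per1 transcript: accccttaacgaCACGTGggccctcaattg
Cry1 E-box, chr10:85020961-85020990, minus strand, 29 bases before the start, in an exon of another Cry1 transcript: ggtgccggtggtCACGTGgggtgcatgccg
Tef E-box, chr15:81695465-81695494, plus strand, 138 bases before the start, in an intron of another Tef transcript and within Gm17597: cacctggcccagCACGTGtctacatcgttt
Per2 D-box, chr1:91387153-91387182, minus strand, 125 bases before the start, outside Per2 and within Gm70796: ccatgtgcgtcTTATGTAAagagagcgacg
Per3 D-box, chr4:151129309-151129338, minus strand, 187 bases before the start, outside Per3 and within Gm69444: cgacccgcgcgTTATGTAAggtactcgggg
Per3 D-box, chr4:151129262-151129291, minus strand, 140 bases before the start, outside the gene: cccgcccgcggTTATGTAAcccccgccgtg
Dbp RORE core, chr7:45354312-45354340, plus strand, 189 bases before the start, outside Dbp and within its neighbour Car11: ttggccaaataTAGGTCAgtgtcccgcct
These letters describe the windows and were not tested for binding.

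Clock transcripts were scarce in blood. Levels are given as CPM (counts relative to the TMM-scaled library size) and, to compare genes, as CPM per kilobase of exon. Cry1 had the highest median level over the 71 mice, 2.52 CPM per kb, followed by Dbp at 2.10, Tef at 2.03, Nr1d2 at 1.70 and Per1 at 1.40. Cry2 followed at 0.861, Clock at 0.469, Nr1d1 at 0.461 and Per2 at 0.407, and Per3 was lowest at 0.0880. The ranges over mice overlapped between neighbours in this order, for example 1.38 to 5.00 CPM per kb in Cry1 and 0.705 to 3.40 in Dbp. In raw counts the medians ran from 13 for Per3 and 21 for Nr1d1 to 213 for Nr1d2 and 233 for Tef. Per3 was at a count of 0 in 6 of 71 mice, Nr1d1 in 2, and Per2 and Clock in 1 each. At these depths a count of 0 does not show absence.

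All 10 genes are protein coding. Opposite-strand exons of another protein-coding gene overlap Nr1d1 (Thra, 1694 of its 3242 exonic bases), Clock (Tmem165, 2047 of 17251) and Dbp (Sphk2, 539 of 3470). Thra had a median count of 135 against 21 for Nr1d1. The strand setting of the counting is not given in the sources used here, so Nr1d1 values may be uncertain.

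Across the 9 comparisons of HOCl with CTRL and of each treated group with HOCl or CTRL, none of the 72 tests on the 8 genes was called at FDR ≤ 0.05 and a fold change of at least 1.3 (limma on vst values). In 10 of them the unadjusted p was under 0.05, and in 2 the FDR was at most 0.05. The largest difference was 0.38 on the log2 vst scale. The 95% confidence intervals ran from −0.57 to 0.66 in all, so a difference of 1 on that scale lay outside each of them. This is no bound of 2-fold on counts, since the vst compresses differences of scarce genes. In E07 against HOCl, Nr1d2 differed by 0.24 on the vst scale and by 0.47 in log2 of counts with edgeR. Nr1d1, with lower counts, differed there by −0.26 on the vst scale, with median CPM of 1.26 in E07 and 2.31 in HOCl. The comparisons of treated groups share their HOCl or CTRL mice and are not independent.

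**Figure D1:**
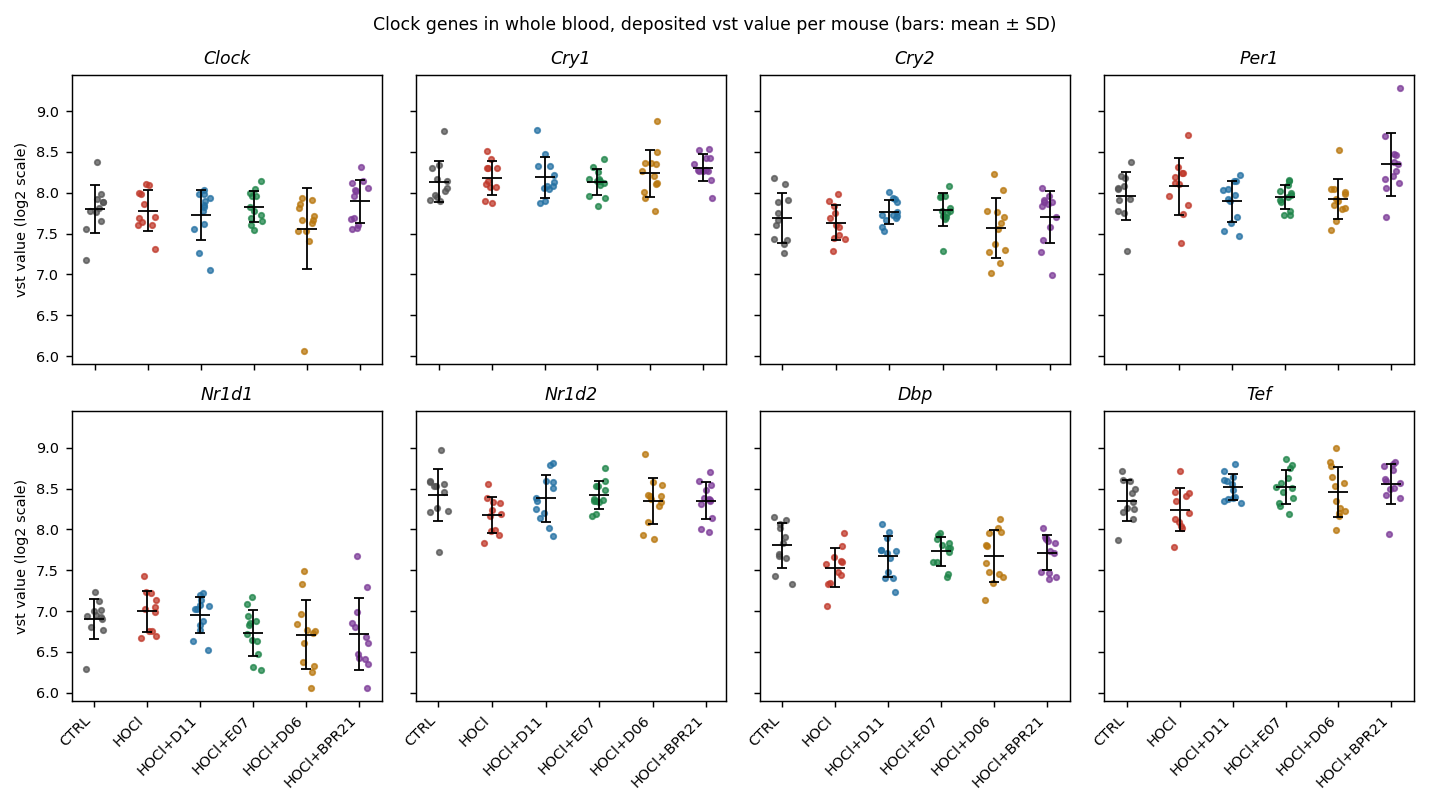
Deposited vst values (log2 scale, y axis) of 8 clock genes in each mouse, by group (x axis). Points are mice and bars the mean ± SD. The groups overlap in each panel. Per1 stands higher in HOCl+BPR21 (mean 8.35), and 1 HOCl+D06 mouse sits at the lowest value of the Clock panel.

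HOCl against CTRL addressed the disease model itself. None of the 8 genes was called, where 4.96% of all genes were. Dbp, the D-box activator, ranged from 7.07 to 7.96 (median 7.58) in HOCl and from 7.33 to 8.15 (median 7.84) in CTRL on the vst scale. Its mean was 0.27 lower in HOCl (SE 0.11, FDR = 0.152). Nr1d2 ranged from 7.84 to 8.55 (median 8.20) in HOCl and from 7.73 to 8.98 (median 8.53) in CTRL, with a difference of −0.25 (SE 0.11, FDR = 0.239). Both ranges overlapped widely. Clock differed by −0.02 (95% interval −0.25 to 0.21) and Per1 by 0.12 (−0.15 to 0.38). Arntl, the CLOCK partner, differed by −0.23 (SE 0.11, FDR = 0.284). The median log2 fold change was −0.04 over the 8 genes and −0.02 over all 10508.

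E07 against HOCl gave the 2 tests that reached the FDR without the fold. Nr1d2 ranged from 8.17 to 8.76 (median 8.37) in HOCl+E07, and 10 of 12 mice lay above the HOCl median of 8.20, though only 2 lay above the highest HOCl mouse. Its difference was 0.24 on the vst scale (SE 0.08, FDR = 0.0479). Tef, a PAR bZIP factor like Dbp, ranged from 8.18 to 8.86 (median 8.51) against 7.79 to 8.72 (median 8.20) in HOCl. It differed by 0.28 (SE 0.10, FDR = 0.0495), and 11 of 12 E07 mice lay above the HOCl median. FDR alone was met by 15% of all genes in this comparison, and FDR with the fold by 7.89%. On counts, edgeR called both genes, Nr1d2 with a log2 fold change of 0.47 (FDR = 0.0353) and Tef with 0.46 (FDR = 0.0327), where it called 8.25% of 15038 genes. With an erythroid score as covariate the FDR was 0.588 for Nr1d2 and 0.413 for Tef, with vst differences of 0.20 and 0.35, in a fit that called 0 of all 10508 genes in this comparison. In the fit of 6 groups the FDR was 0.144 and 0.0669.

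Nr1d1, the other REV-ERB gene, went the other way from Nr1d2 in the same comparison, with −0.26 on the vst scale (SE 0.11, FDR = 0.102). Dbp differed by 0.20 (SE 0.09, FDR = 0.139). Clock, Cry1, Cry2 and Per1 differed by −0.13 to 0.16. The erythroid list summed to 24876 to 65739 CPM in E07 and 47955 to 259666 CPM in HOCl, and its part in these differences was not tested beyond the covariate fit.

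D11, D06 and BPR21 against HOCl called none of the 8 genes, where 0.0571%, 0.133% and 0.638% of all genes were called. Tef had the smallest p of the members in D11, with 0.28 (SE 0.09, FDR = 0.184), and in BPR21, with 0.31 (SE 0.11, FDR = 0.156). It was 0.22 in D06 (SE 0.12, FDR = 0.433). These 3 values rest on the same 11 HOCl mice, as does that for E07. Nr1d1 was lower in D06 by −0.29 (SE 0.14, FDR = 0.388) and in BPR21 by −0.28 (SE 0.14, FDR = 0.392). D11, E07, D06 and BPR21 against CTRL called none either, where 0.0761%, 0.00952%, 7.88% and 0.504% of all genes were called.

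**Figure D2:**
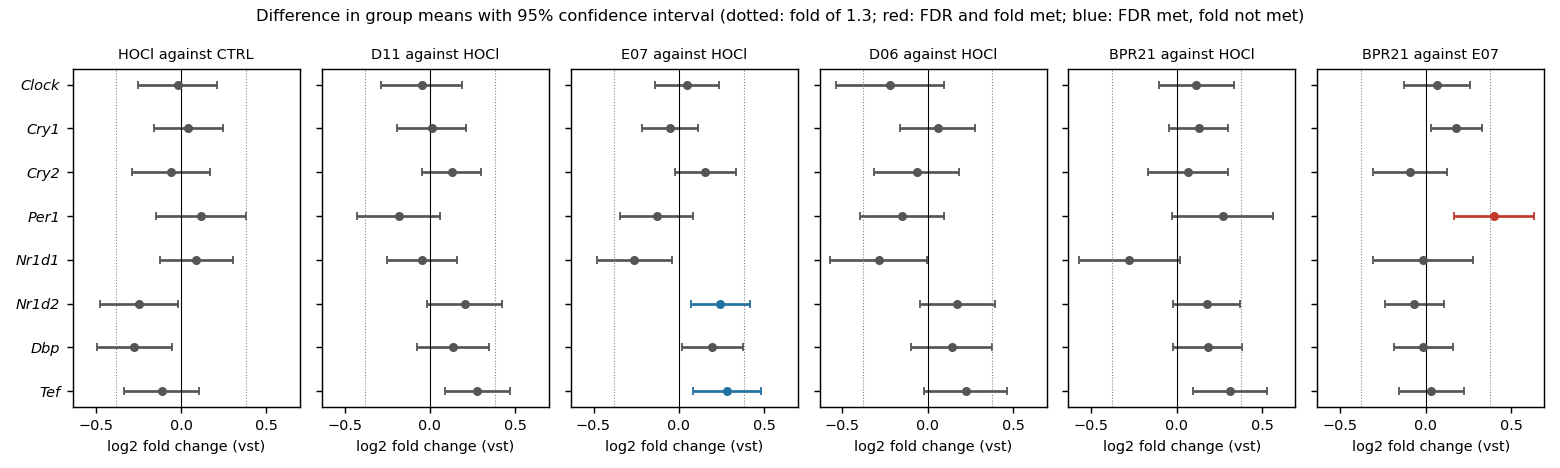
Log2 fold change on the vst scale (x axis) with its 95% confidence interval for 8 clock genes (rows) in 6 comparisons. Dotted lines mark a fold of 1.3. Nr1d2 (0.24) and Tef (0.28) in E07 against HOCl met the FDR and not the fold, and Per1 (0.40) in BPR21 against E07 met both.

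Of the 8 members, only Per1 was called in the test over all 6 groups. In the limma F-test over the 6 groups it was called (F = 4.30, FDR = 0.0152), as were 18.3% of all genes, while Tef had an FDR of 0.0910 and each of the other 6 at least 0.248. Per1 ranged from 7.71 to 9.29 (median 8.31) in HOCl+BPR21. The medians of the other groups were 8.05 in CTRL, 8.12 in HOCl, 7.95 in HOCl+D11, 7.96 in HOCl+E07 and 7.91 in HOCl+D06. The ranges overlapped in each case, and in CPM the BPR21 mice ran from 6.95 to 33.9 and the CTRL mice from 3.76 to 15.6.

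The largest share of BPR21 mice above another group was against E07, where 9 of 12 lay above the highest E07 mouse of 8.16. This comparison between treated groups was added after the values were seen. Per1 was 0.40 higher in BPR21 on the vst scale (SE 0.11, FDR = 0.0284), with means of 8.35 and 7.95, and was called, as were 7.26% of all genes. By edgeR on counts it was 0.67 (FDR = 0.0196), where 7.55% of genes were called. Against CTRL it was 0.38 higher (SE 0.14, FDR = 0.127), against D11 0.45 (SE 0.13, FDR = 0.455), against D06 0.42 (SE 0.13, FDR = 0.281) and against HOCl 0.27 (SE 0.14, FDR = 0.408). In the added comparisons the share of all genes called was 0% for BPR21 against D11 and for D06 against D11, and 0.0571% for BPR21 against D06. Of the 120 tests in all 15 comparisons, this 1 was called, and 16 had an unadjusted p under 0.05.

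The Per1 call in BPR21 against E07 turned on few mice and on the scaling. BPR21 mouse 11, one of the 5 least like the others, had the highest Per1 (33.9 CPM) and Per2 (10.1 CPM). Without it the vst difference from E07 was 0.31 (FDR = 0.0374), and without BPR21 mouse 10 it was 0.37 (FDR = 0.0432). Both met the FDR and missed the fold. Without E07 mouse 4 the difference was 0.38 and missed the FDR (0.0503). Per1 was called in 21 of the 24 fits with 1 mouse left out, and in 69 of 70 such F-tests. The share of all genes called was not tallied in these fits. Of the 5 mice least like the others, HOCl mouse 8 had no vst values and was in none of these tests. Without the others of the 5 the F-test FDR was 0.127 (18.3% of all genes called). In BPR21 against E07 this left out only BPR21 mice 11 and 12, and the difference was 0.30 (FDR = 0.0606). With the erythroid score as covariate it was 0.44 (FDR = 0.650), in a fit that called 0 of all 10508 genes in that comparison. On CPM of the total count it was 0.20 (FDR = 0.394), on a scale where the median gene was −0.41. In the F-test restricted to CTRL, HOCl, HOCl+D11 and HOCl+E07 the FDR of Per1 was 0.592. Over all 6 groups Per1 kept its F-test call with the erythroid score as covariate (FDR = 0.0267, 3.58% of all genes called). It also kept it on CPM of the total count (FDR = 0.0145, 74.9% called). On counts, the test over the 6 groups gave an FDR of 0.00878 by edgeR (14.5% called) and 0.00202 by DESeq2 (17.4% called).

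Glucocorticoid-responsive genes were examined beside Per1. Of 10 listed genes 9 were tested, and 3 were called in BPR21 against E07, where 7.26% of all genes were called, each higher: Tsc22d3 (GILZ, an anti-inflammatory leucine zipper protein), Ddit4 (an mTORC1 inhibitor) and Dusp1 (a MAP kinase phosphatase). Tsc22d3 ranged from 168 to 549.8 CPM (median 297) in BPR21 and from 115 to 235 CPM (median 139) in E07. On the vst scale 10 of 12 BPR21 mice lay above the highest E07 mouse, and the difference was 0.97 (SE 0.16, FDR = 0.00426). Ddit4 differed by 0.75 (SE 0.15, FDR = 0.0156) and Dusp1 by 0.99 (SE 0.29, FDR = 0.0301). The median over the 9 genes was 0.48, against −0.01 over all genes. The same 3 were lower in E07 than in HOCl, Tsc22d3 by −0.80 (FDR = 0.00659), Ddit4 by −0.40 (FDR = 0.0270) and Dusp1 by −1.09 (FDR = 0.00401), where Per1 differed by −0.13 (FDR = 0.442) and 7.89% of all genes were called. With the erythroid score as covariate, 0 of all genes were called in either comparison, these 3 included. In the F-test, which called 18.3% of all genes, 5 of the 9 were called: Fkbp5, Tsc22d3, Ddit4, Dusp1 and Il1r2. In BPR21, single mice stood far above the median: 342 CPM against 16.9 for Il1r2 and 577 against 75.6 for Dusp1, both in mouse 11. For Fkbp5 it was 55.6 against 15.7 (mouse 7). The highest BPR21 mouse stood nearer the median in Ddit4 (55.7 against 22.0) and Tsc22d3 (549.8 against 297). The calls of these genes were not examined with mice left out. Dusp1 was also lower in E07 than in D11, where 4.57% of all genes were called, and Tsc22d3, Dusp1 and Cdkn1a were higher in D06 than in E07, where 9.76% of all genes were called.

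**Figure D3:**
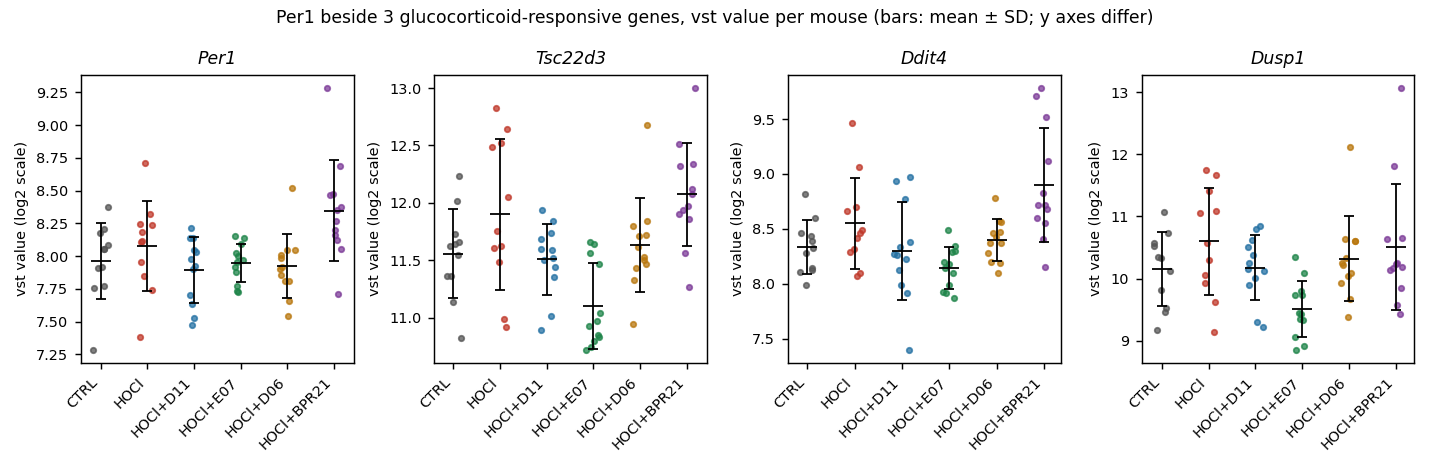
Deposited vst values (log2 scale, y axes differ) of Per1, Tsc22d3, Ddit4 and Dusp1 in each mouse by group. Bars are mean ± SD. HOCl+BPR21 has the highest mean of Per1 (8.35), Tsc22d3 (12.07) and Ddit4 (8.90), and HOCl+E07 the lowest mean of Tsc22d3 (11.10), Ddit4 (8.15) and Dusp1 (9.51).

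Blood cell markers moved in part with these groups. Monocyte markers, a list of 5, summed to 128 to 399 CPM (median 243) in BPR21 and 254 to 488 (median 334) in E07. Neutrophil markers, a list of 6, summed to 2827 to 20643 CPM (median 3796) in BPR21 and 3121 to 6214 (median 4809) in E07. B cell markers had medians of 890 and 1385 CPM and T cell markers of 1228 and 1189, and NK cell markers of 211 and 290. Platelet markers had medians of 4548 and 3036 CPM and eosinophil markers, of which Epx was at a median count of 0, of 39.5 and 56.7. Erythroid markers had medians of 64851 and 40509 CPM. Apart from the erythroid covariate fit, the part of these cells in the Per1 difference was not tested.

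Per2 and Per3, the paralogues of Per1, were tested on counts with edgeR, and none of 18 tests in the 9 comparisons was called (lowest edgeR FDR 0.156), with 1 unadjusted p under 0.05. Of all genes, edgeR called 3.74% in HOCl against CTRL, 0.186%, 8.25%, 0.0864% and 0.479% in D11, E07, D06 and BPR21 against HOCl, and 0.0532%, 0.00665%, 7.35% and 1.49% in the same groups against CTRL. DESeq2 on counts called none of the tests for which it gave an FDR. It gave none for Per3 in D11, D06 and BPR21 against HOCl and in D11 and E07 against CTRL. The same held for Per2 in D11 and D06 against HOCl. Its lowest FDR was that of Per3 in BPR21 against CTRL (log2 fold change 1.77, FDR = 0.0504). In the 9 comparisons DESeq2 called from 0.106% (E07 against CTRL) to 9.42% (E07 against HOCl) of all genes. Per3 in BPR21 ranged from 0 to 6.28 CPM (median 1.53) and in CTRL from 0 to 1.27 (median 0.780). Its edgeR log2 fold change of 1.74 (SE 0.64, FDR = 0.156) rests on counts of 0 to 66 and 0 to 21. Per2 medians ran from 2.47 CPM in E07 to 2.84 in D06. In the edgeR F-test, which called 14.5% of genes, the FDR was 0.775 for Per2 and 0.348 for Per3.

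**Figure D4:**
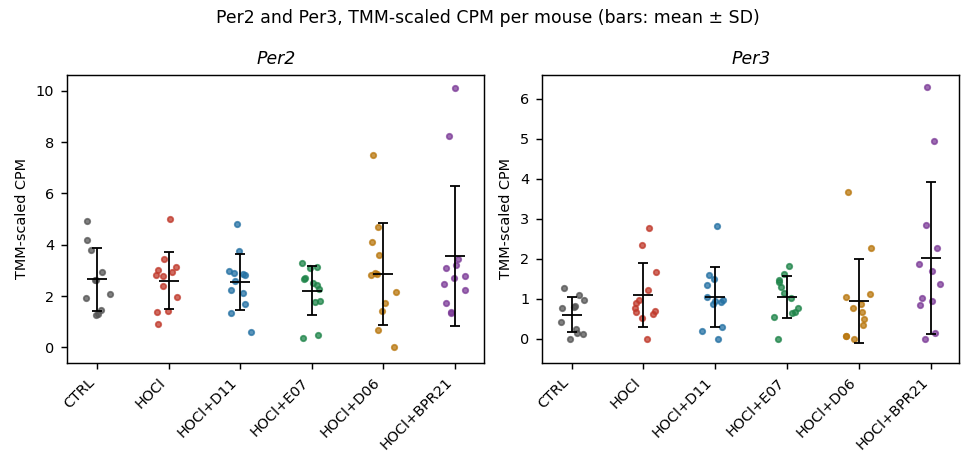
TMM-scaled CPM (y axis) of Per2 and Per3 in each mouse by group (x axis), with mean ± SD. The groups overlap, and single mice of HOCl+BPR21 reach the highest values, 10.1 CPM for Per2 and 6.28 CPM for Per3.

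Among 23 other clock genes, 12 were tested. Nfil3, a D-box repressor, was lower in E07 than in HOCl by −0.47 (SE 0.10, FDR = 0.00182), and Csnk1d, a kinase of PER proteins, by −0.38 (SE 0.09, FDR = 0.00362), where 7.89% of all genes were called and 0 with the erythroid score as covariate. Timeless was lower in D06 than in CTRL by −0.42 (SE 0.14, FDR = 0.0479), where 7.88% of all genes were called. The genes called by the F-test, 18.3% of all genes, included Nfil3, Csnk1d and Timeless.

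A within-library ratio does not depend on the scaling between mice. The ratio of Nr1d2 to Arntl, genes whose transcripts peak at opposite phases in mouse tissues, was taken as log2 of counts plus 0.5. It ranged from 0.52 to 1.72 (median 1.07) in CTRL and from −0.51 to 2.27 (median 0.99) in HOCl. Medians in the treated groups were 1.27 for D11, 1.34 for E07, 1.31 for D06 and 1.27 for BPR21. The mean difference was −0.01 for HOCl against CTRL and 0.28 for E07 against HOCl. None of the 9 comparisons passed a two-sided permutation test (adjusted p from 0.934 to 0.981). The spread within HOCl (SD 0.84, n = 12) was larger than each of these differences.

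Variation between mice of the same group placed the 8 members with vst values from the 28.2nd to the 80.3rd percentile of genes. The within-group SD on the vst scale was at the 80.3rd percentile of all genes for Nr1d1 and the 78.1st for Clock. It was at the 66.1st percentile for Per1, 58.3 for Cry2, 48.5 for Nr1d2, 44.3 for Dbp, 39.3 for Tef and 28.2 for Cry1. The order depended on the measure. By the coefficient of variation that edgeR estimates from counts, Nr1d1 was at the 77.6th percentile, Clock at the 53.8th and Per1 at the 44.5th. Per3 was at the 80.2nd and Per2 at the 68.1st. At the median count of Nr1d1, 21, counting alone gives a coefficient of variation of 0.218. D06 mouse 9 had a Clock count of 0, where the D06 median was 79.5, and the SD of Clock was 0.50 in D06 against 0.19 to 0.31 in the other groups.

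After group means were removed from log2 CPM, members did not vary together in a way that passed correction. Of 45 pairs over 71 mice, 4 had an unadjusted p under 0.05 in a permutation test within groups, and none had an adjusted p of at most 0.05. The median r was 0.07, and 32 pairs were positive. Per3 and Cry1 had the highest (r = 0.30, rho = 0.31, permutation p = 0.0136 and 0.0104, adjusted p = 0.306 and 0.369), and r was 0.22 without the 2 mice most extreme in Per3. Per1 and Nr1d1 had r = 0.30 (rho = 0.20, permutation p = 0.0123 and 0.0966, adjusted p = 0.306 and 0.544), and 0.20 without 2 mice. Nr1d1 and Nr1d2 had r = −0.20 (rho = −0.23, permutation p = 0.1004 and 0.0515, adjusted p = 0.502 and 0.480), and −0.26 without 2 mice. On CPM of the total count, 24 of 45 pairs had an adjusted p of at most 0.05 and each was positive, with a median r of 0.29.

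**Figure D5:**
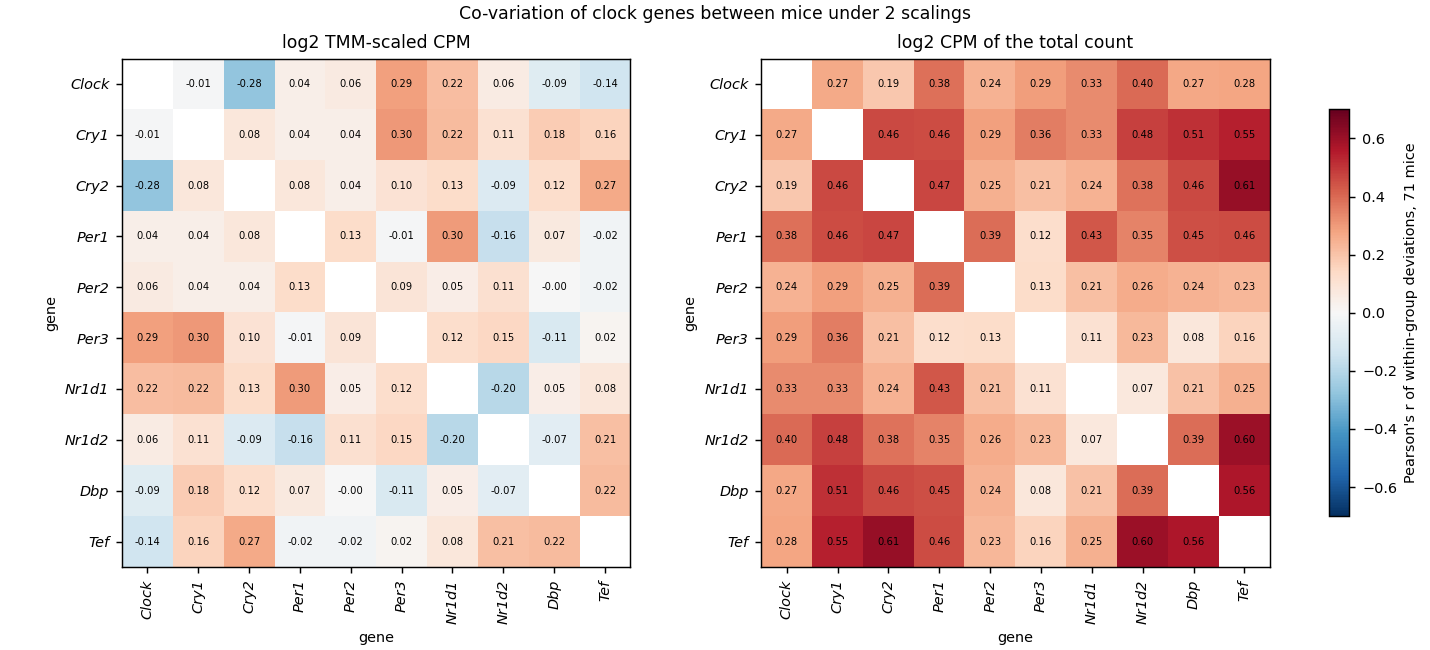
Pearson's r between within-group deviations of 10 clock genes (rows and columns) over 71 mice, on log2 TMM-scaled CPM (left) and log2 CPM of the total count (right). The pairs run from −0.28 to 0.30 on the left and from 0.07 to 0.61 on the right.

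Each member was also set against Arntl, the 10 glucocorticoid-responsive genes and an erythroid score, 120 relations added after the values were seen. Dbp and Dusp1 ran opposite to each other (r = −0.42, rho = −0.43, permutation p = 0.000550 and 0.000320, adjusted p = 0.0330 and 0.0384), with r = −0.40 without the 2 mice most extreme in Dbp. It was negative within each of the 6 groups, from −0.11 in D06 to −0.76 in HOCl, and −0.21 on CPM of the total count. Per2 and Il1r2, the decoy receptor of interleukin-1, had r = 0.46 (rho = 0.27, permutation p = 0.000300 and 0.0267, adjusted p = 0.0330 and 0.388). Within groups that r ran from −0.17 in D11 to 0.91 in BPR21, where mouse 11 held the highest level of both, 10.1 CPM for Per2 and 342 CPM for Il1r2. Arntl with Nr1d2 had r = 0.25 (rho = 0.18, permutation p = 0.0493 and 0.152, adjusted p = 0.311 and 0.661). Per1 had r = 0.07 with Tsc22d3, 0.09 with Dusp1 and 0.27 with Ddit4 (rho = −0.02, −0.05 and 0.25). The adjusted permutation p of these 3 values of r was 0.854, 0.828 and 0.291.

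The genes most like the members across mice, given for 9 of them, were other than clock genes. As a description over 71 mice and 15037 other genes, Per1 was closest to Srgap2 (r = 0.57), Mnt (0.57) and Safb (0.52), and Per2 to Ets2 (0.67), Jrkl (0.58) and Txnip (0.53). Clock was closest to Amigo2 (0.72), Pde4dip (0.71) and Zfp287 (0.69), and Nr1d2 to Zfp472 (0.63), Ppp4r3b (0.62) and Trmt10c (0.61). For Cry1 they were Tgif2 (0.50), Gas6 (0.49) and Fastkd1 (0.47), and for Cry2 Hdgfl2 (0.55), Scly (0.55) and Nacc1 (0.54). For Dbp they were Fam53a (0.54), Dtymk (0.53) and Prelid2 (0.48), and for Tef Fdx1 (0.49), Fiz1 (0.48) and A830082N09Rik (0.48). For Nr1d1 they were Gm15729 (0.54), Gm6166 (0.53) and Tgfbr3l (0.52). The nearest fellow member in any ranking was Per3 for Cry1, at rank 147.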

How the data were processed

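Whole blood was taken at the end of the experiment, and RNA libraries (stranded, poly A selected, globin depleted) were sequenced in pairs. The authors used Cutadapt, STAR, featureCounts and DESeq2 on the mouse mm39 build, and deposited raw counts per gene for 71 mice and vst values, on a log2 scale from DESeq2, for 10508 genes of 70 mice after removing non-coding and low genes. The strand setting, the annotation and the versions of Cutadapt, STAR and featureCounts for these mice are not given in the sources used here.

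Groups follow the sample titles, since the genotype label reads HOCL in each mouse, those of CTRL included. The vst values were tested with limma 3.58.1 in fits of the 2 groups compared, Benjamini-Hochberg adjusted over all genes, and called at FDR ≤ 0.05 and fold ≥ 1.3, the thresholds of the study's methods. Counts were tested with edgeR 4.0.16 (TMM, quasi-likelihood, 15038 genes kept by filterByExpr) for Per2 and Per3 and as an alternative, with DESeq2 1.42.0 as another. Log2 CPM for correlations used a prior count of 2, and CPM of the total count a pseudocount of 1. Permutation tests used 100000 resamples in numpy. Labels do not say that mice sharing a number were related. The mean correlation of profile deviations between same-numbered mice ran from 0.0004 in BPR21 against D06 to 0.146 in E07 against CTRL. For mice of different numbers it was 0.001 and −0.010 in those 2 comparisons. Mouse number was therefore also fitted as a replicate block. The tests were checked on simulated data. Named were the 10 members and Arntl, other clock and glucocorticoid genes where called, and the 3 genes most like each member. Some results under these rules are not reported here. The members and lists were chosen with earlier results of these data known. The 6 comparisons between treated groups were added after the values were seen. Alternatives were other tools, filters, scalings, covariates and left-out mice.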

Additional observations from a re-analysis of the deposited data

How the results depend on the processing

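Of the alternatives, CPM of the total count changed the most calls. It called 3 of the 8 genes in HOCl against CTRL (each lower, 52% of all genes called), 6 in E07 against HOCl (each higher, 65.5%), 6 in D06 against CTRL (each lower, 67%), 1 in E07 against D11 (44.4%), 7 in D06 against E07 (each lower, 74.2%) and 6 in the F-test (74.9%). It shifted the median gene by −0.45, 0.47, −0.54, 0.37 and −0.56 in those 5 comparisons. In BPR21 against E07, where it called 45.8% of all genes, it called Nr1d2, lower, in place of Per1. It turned Cry1 to −0.12 from 0.18 there, where the median of all genes was −0.41. On that scale 24 pairs of genes co-varied, against 0. In E07 against HOCl, 2 genes (Nr1d2 and Tef) were called by edgeR, by DESeq2, by edgeR without the low count filter and by FDR alone. These settings called 8.25%, 9.42%, 7.13% and 15% of all genes. In BPR21 against CTRL, 1 (Per1) was called in the fit of 6 groups, where 3.86% of all genes were. In BPR21 against E07, 0 were called with the erythroid score, where 0% of all genes were. There 0 were also called without BPR21 mice 11 and 12, the only ones in it of the 5 mice least like the others. The F-test called 0 in 4 groups only (13% of all genes called) and 0 without those of the 5 mice that had vst values (18.3%). With 1 mouse left out, the F-test called 0 to 2 genes (0 without BPR21 mouse 11, 2 without BPR21 mouse 9 or HOCl mouse 4). BPR21 against E07 then called 0 to 1 (0 without BPR21 mouse 10, BPR21 mouse 11 or E07 mouse 4). The share of all genes called was not tallied with 1 mouse left out, nor in that comparison without BPR21 mice 11 and 12.

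Of the ratio differences, none of which passed a test, some changed sign. With Clock as denominator these were D11 against HOCl (0.55) and, against CTRL, D11 (0.0808), E07 (−0.0627) and BPR21 (−0.28). Without the mouse that has no vst values they were HOCl against CTRL (0.13) and BPR21 against HOCl (−0.0274). The causes were not tested. With mouse number as a replicate block, 0 clock genes were called in the 9 comparisons of design, where 0% to 8.39% of all genes were. In BPR21 against E07 1, Per1, was called, where 7.36% of all genes were. Both counts were as without the block, while the FDR of Nr1d2 and Tef in E07 against HOCl was 0.0712 and 0.0895. In no comparison did more than 7 same-numbered pairs of mice have profile deviations correlated over 0.1 (E07 against CTRL, 11 pairs). Per2 and Per3 were called in none of the 9 by any tool, though DESeq2 gave no FDR for some of these tests. Median counts of 13 to 36 for Per3, Nr1d1 and Per2 limit what could be detected.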
